A study of Mus musculus with 8 samples.

Results

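Mitochondrial ribosomal proteins were followed here in activated mouse CD4 T cells that did or did not receive db-cAMP (dibutyryl cyclic AMP), a form of the signalling molecule cyclic AMP that can enter cells. The genes were taken by symbol, as every gene named Mrpl or Mrps followed by a number on a probe set with a single gene symbol. This gave 76 genes of 18193 named on the array, 47 named for the large and 29 for the small subunit. All 76 passed the filter on dim genes, which 12091 of the 18193 passed. The genes had 156 probe sets, and each gene is given by its brightest one.

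Each of the 8 arrays measured RNA from splenic CD4+ T cells of mice aged 8 weeks, purified with autoMACS. The mice were wild type (WT) or IFN-gR1 KO (KO), the latter lacking a chain of the interferon-gamma receptor, and the labels name no cell type to which the deficiency is limited. All cells, controls included, were stimulated for 15 h through anti-CD3 together with anti-CD28, and received db-cAMP or vehicle for the last 3 h. Cells of either genotype received either vehicle or db-cAMP, which gave 4 groups of 2 arrays. The titles call the 2 arrays of a group biological replicates without saying whether mice or cultures were separate, so that p-values cover no more than the spread among these arrays, which may be technical.

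The mitochondrion keeps a ribosome of its own, which translates the few messages of mitochondrial DNA into core subunits of the respiratory chain and ATP synthase. Its RNA is made in the organelle, whereas all of its proteins come from nuclear genes, are made on cytosolic ribosomes and are imported. They differ in descent as well as in subunit, since some of its proteins have a counterpart in the bacterial ribosome and the others were added later in evolution. T cells that leave the resting state enlarge their mitochondria and make both kinds of ribosome, and cyclic AMP is a known brake on T cell activation.

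Values are scaled signals without a unit, and because each array was scaled to an equal trimmed mean, the amount of mRNA in a cell was not measured. Replicate arrays correlated at 0.983 to 0.991 over the 76 genes. The target of the knockout, Ifngr1, gave 905 and 873 in WT and 439 and 378 in KO cells under vehicle, and its probe set may lie outside the deleted part, so it checks nothing. Gbp2, which interferon-gamma induces, gave 6960 and 8103 in WT against 480 and 384 in KO cells. The 4 KO arrays were grouped by title, source name and genotype entry, although their free-text description names WT cells. Of 8 CD4 T cell markers 7 were named on the array and all 7 were above the filter, with summed signals of 68970 to 78570 per array. Cd4 itself gave 253 to 539, so the sum came mostly from the other markers. With db-cAMP in WT cells 5 of the 7 were called, Cd3e, Cd3g and Cd5 lower and Cd28 and Cd2 higher. Between the genotypes 4 were called with vehicle and 5 with db-cAMP. Markers of CD8 T, B, myeloid, dendritic and erythroid cells summed to at most 593 in any array, but some moved with the genotype. CD8 T cell markers summed to 499 to 516 in WT and 290 to 335 in KO cells with vehicle, and to 367 to 433 and 270 to 276 with db-cAMP. Of these 2 markers Cd8b1 was called lower in KO cells under both treatments. B cell markers summed to 457 to 501 in WT and 339 to 400 in KO cells with vehicle, and to 535 to 593 and 308 to 348 with db-cAMP, where 2 of the 4 found were called lower in KO cells. NK cell markers summed to 702 to 866 in WT and 758 to 839 in KO cells with vehicle, and to 1682 to 1856 and 1318 to 1454 with db-cAMP. The part of these markers in the results was not tested.

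Promoter sequence is shown for 6 genes on which the results turn. Mrps18a, Mrps18b and Mrps18c are the 3 mammalian relatives of bacterial ribosomal protein S18, and db-cAMP moved them in different directions. Mrpl12 and Mrpl17 fell in WT cells under every processing tried, and Mrpl16 is the gene among those called lower whose promoter held a full cyclic AMP response element. The 180 bases before the start site are printed 5′ to 3′ on the strand of the gene, from RefSeq on assembly GRCm38.p6. Capitals mark matches on either strand. The motifs are TGACGTCA (the cyclic AMP response element, CRE) and its half-site TGACG, the E-box CACGTG that MYC proteins bind, and CCGGAAG, which ETS factors bind. The motif of NRF1 is GCGCA followed by any base and then by GCGC.
Mrps18a, chr17:46110824-46111003, plus strand: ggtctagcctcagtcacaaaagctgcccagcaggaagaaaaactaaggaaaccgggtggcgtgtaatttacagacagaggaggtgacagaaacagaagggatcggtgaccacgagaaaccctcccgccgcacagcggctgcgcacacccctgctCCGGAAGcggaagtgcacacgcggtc
Mrps18b, chr17:35916441-35916620, minus strand: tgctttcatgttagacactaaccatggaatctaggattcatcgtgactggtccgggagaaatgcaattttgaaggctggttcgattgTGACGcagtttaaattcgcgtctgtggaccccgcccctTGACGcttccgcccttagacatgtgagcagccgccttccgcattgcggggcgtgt
Mrps18c, chr5:100798579-100798758, plus strand: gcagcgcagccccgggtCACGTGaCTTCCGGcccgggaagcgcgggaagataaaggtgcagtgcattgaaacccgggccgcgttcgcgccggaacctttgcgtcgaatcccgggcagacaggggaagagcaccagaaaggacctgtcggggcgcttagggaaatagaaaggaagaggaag
Mrpl12, chr11:120484457-120484636, plus strand: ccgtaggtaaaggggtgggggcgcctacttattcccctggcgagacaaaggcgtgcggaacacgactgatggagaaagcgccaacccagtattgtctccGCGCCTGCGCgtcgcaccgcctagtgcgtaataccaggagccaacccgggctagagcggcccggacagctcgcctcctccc
Mrpl17, chr7:105811088-105811267, minus strand: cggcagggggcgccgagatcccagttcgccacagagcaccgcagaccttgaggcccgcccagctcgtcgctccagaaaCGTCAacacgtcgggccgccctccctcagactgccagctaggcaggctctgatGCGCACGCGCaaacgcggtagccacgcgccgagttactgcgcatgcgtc
Mrpl16, chr19:11770235-11770414, plus strand: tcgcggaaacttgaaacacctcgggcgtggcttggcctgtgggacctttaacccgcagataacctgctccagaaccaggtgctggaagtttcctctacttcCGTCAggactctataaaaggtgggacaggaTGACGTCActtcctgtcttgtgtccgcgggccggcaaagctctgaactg

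Counting back from the start site, the Mrpl16 element began at -49, the NRF1 match of Mrpl12 at -81 and that of Mrpl17 at -49. Mrps18b held CRE half-sites at -93 and -55, Mrps18a an ETS match at -26, and Mrps18c an E-box at -163 next to an ETS match at -156. Over the window from 250 bases before to 50 after the start, RefSeq gave a promoter for 67 of the 76 genes and for 9824 genes tested. The CRE was in 2 of the 67 (2.99%, against 3.17% of the promoters of genes tested), the other one being Mrpl49 with a match at -154. Its half-site, which each full CRE also contains, was in 28 (41.8%, against 31.4%). The E-box was in 5 (7.46%, against 986 of the 9824), the ETS match in 24 (35.8%, against 18.3%) and the NRF1 match in 12 (17.9%, against 10.5%). A match to AAGATGGC, which YY1 binds, was in 12 (17.9%, against 4.78%). These are matches of letters in one window and not measured binding sites.

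In WT cells, db-cAMP lowered most of the mitochondrial ribosomal protein genes by modest amounts, in both subunits. Of the 76 genes 49 fell, 2 rose and 25 did not pass the test (limma, adjusted p under 0.05). Among all genes tested 18.6% were called lower and 16.4% higher, so the share of 64.5% called lower stood above the background. The background, here and below, was not matched for brightness. Mean signals of the 76 genes ran from 740.8 to 13020, where the medians of the arrays were 56.21 to 70.46. The median log2 change was -0.33 for the 76 genes, or 20.5% lower, and 0.01 for all genes tested. Estimates were below 0 for 70 of the 76 genes, and the called falls ran from -0.21 to -1.07. The fall reached 2-fold in 1 gene, Mrps18b. Of the 49 falls 24 were called under all 20 alternative settings, 12 in each subunit. In bulk RNA, fewer cells of a type and less RNA per cell cannot be told apart.

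The 2 arrays with db-cAMP stood below both arrays with vehicle, without overlap, in 63 of the 76 genes (82.9%, against 30.9% of all genes tested). They stood above both in 2 genes (2.63%, against 32.2%). Against the mean of the WT vehicle arrays, the median over the 76 genes was 0.01 and -0.01 in those arrays and -0.31 and -0.32 in the arrays with db-cAMP. It was -0.17 and -0.13 in KO cells with vehicle and -0.27 and -0.34 in KO cells with db-cAMP. The 2 arrays of each group lay close together, and the WT vehicle arrays stood above all 6 others. Control probe sets for 18S rRNA also moved with db-cAMP, from 25510 and 28570 to 36890 and 37630 in WT cells and from 24550 and 26850 to 31400 and 38700 in KO cells. Their ratio of 3′ to 5′ signal was 0.353 and 0.386 in WT cells with vehicle and 0.41 and 0.441 with db-cAMP. The part of either in the results was not tested.

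**Figure D1:**
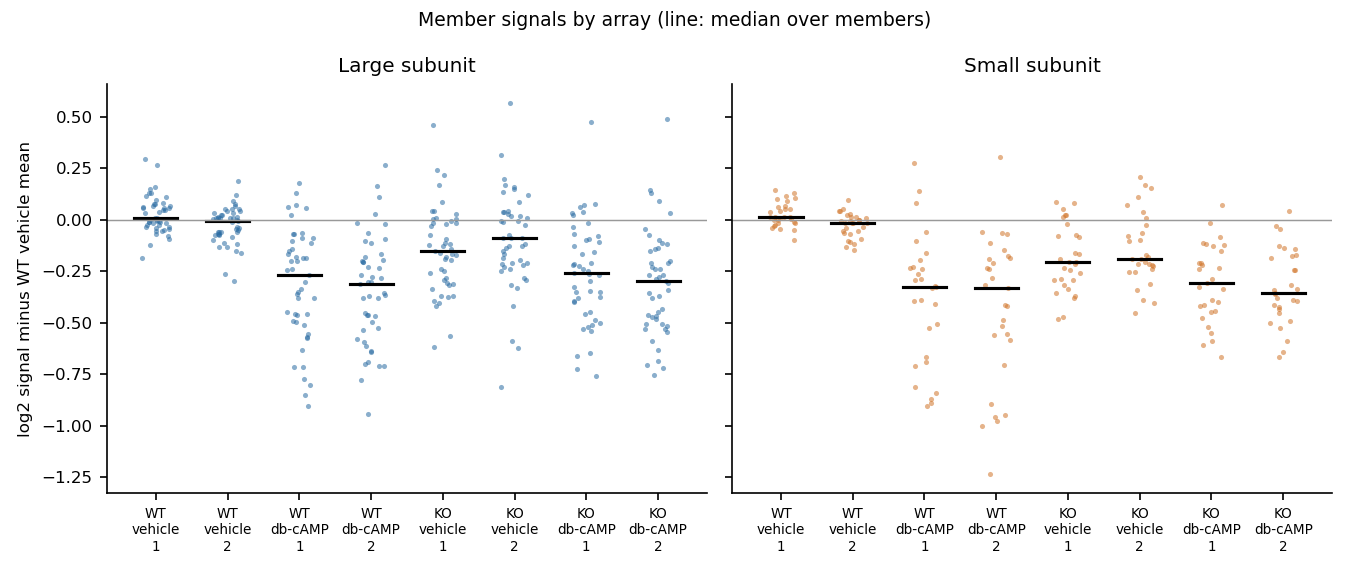
Signal of each of the 76 genes in each array as log2 minus the mean of the 2 WT vehicle arrays (vertical axis), with the large subunit left and the small subunit right; points are genes and lines are medians. In both panels the medians of the WT db-cAMP arrays lie below those of the vehicle arrays of either genotype.

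The small subunit held the gene with the largest fall. Mrps18b gave 3616 and 3829 with vehicle and 1983 and 1576 with db-cAMP. Both treated arrays were far below both controls, a log2 change of -1.07 ± 0.10 (SE, n = 2 against 2; limma adjusted p = 2.83e-06). Mrps6, the counterpart of bacterial S6, gave 9714 and 8835 with vehicle and 5055 and 4692 with db-cAMP. It fell by 47.4% (log2 -0.93 ± 0.08, limma adjusted p = 1.17e-06). Mrps2, a core protein of the small subunit, went from 2293 and 2101 to 1183 and 1136 (log2 -0.92 ± 0.09), and no treated array of any of these genes reached a control array. Mrps26, which has no bacterial counterpart, went from 3509 and 3572 to 2013 and 1822 (log2 -0.88 ± 0.09). Mrps5, which lies near the messenger channel of the small subunit, went from 2058 and 1715 to 1146 and 1009 (log2 -0.80 ± 0.11).

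The other falls of the small subunit were smaller. Mrps35, Mrps27 and Mrps34, which have no bacterial counterpart, changed by -0.76 ± 0.15, -0.70 ± 0.13 and -0.69 ± 0.08. Mrps12, a protein of the decoding centre, gave 6148 and 5225 with vehicle and 4274 and 3962 with db-cAMP (log2 -0.46 ± 0.10, limma adjusted p = 0.0025). In all, 20 of the 29 small subunit genes fell, 1 rose and 8 did not pass. Those 8 had changes from -0.19 to 0.04, among them Mrps14 at -0.14 ± 0.07 and Mrps25 at -0.06 ± 0.10.

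The S18 relatives did not move together. Mrps18b fell as given above, and Mrps18a went from 4068 and 4144 to 2545 and 3079 (log2 -0.55 ± 0.09, limma adjusted p = 0.00038). Mrps18c instead rose, from 8555 and 8472 with vehicle to 10308 and 10538 with db-cAMP. Its groups did not overlap and its change was 0.29 ± 0.06 (limma adjusted p = 0.00294), a rise of 22.4%. In the structure of the mammalian mitochondrial ribosome the 3 proteins hold different places, Mrps18a in the large subunit and the other two in the small one.

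In the large subunit 29 of 47 genes fell, 1 rose and 17 did not pass. Mrpl19 had the largest fall, from 3623 and 3385 with vehicle to 1868 and 1817 with db-cAMP (log2 -0.93 ± 0.08, limma adjusted p = 6.58e-07). Mrpl17, one of the proteins at the exit of the peptide tunnel, went from 8078 and 8157 to 4647 and 4724. Replicates lay close together in both groups, and the change was -0.79 ± 0.07 (limma adjusted p = 9.05e-07). Mrpl57, which has no bacterial counterpart, went from 6281 and 6405 to 3517 and 3900 (log2 -0.78 ± 0.09), and Mrpl15 from 8212 and 7705 to 4646 and 4867 (log2 -0.74 ± 0.07).

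Genes of the stalk and the catalytic core of the large subunit covered a range of changes. Mrpl12, the stalk protein that recruits translation factors, went from 13736 and 15596 to 8918 and 9404 (log2 -0.68 ± 0.08, limma adjusted p = 1.16e-05). Mrpl10, on which the stalk is mounted, changed by -0.37 ± 0.09 and was called lower, without WT vehicle array 1 at an adjusted p of 0.0514. Mrpl11, at the base of the stalk, gave 5004 and 4255 with vehicle and 4110 and 3828 with db-cAMP. Its groups did not overlap, but its change of -0.22 ± 0.09 did not pass (limma adjusted p = 0.0785). This depends on the probe set, which had a mean signal of 4215. Others of Mrpl11 were called lower, at -0.35 (mean signal 3898, limma adjusted p = 0.00869) and -0.46 (975.5, 0.0407). A dim one at 0.34 was not called (61.48, 0.683). Mrpl3 and Mrpl2, core proteins near the peptidyl transferase centre, changed by -0.64 ± 0.10 and -0.46 ± 0.07 and were called lower.

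The one rise in the large subunit was that of Mrpl58, also known as ICT1, a hydrolase that frees peptides from stalled mitochondrial ribosomes. It gave 3613 and 3890 with vehicle and 4244 and 4518 with db-cAMP, without overlap (log2 0.22 ± 0.08, limma adjusted p = 0.0439). This call was lost without WT vehicle array 1 (adjusted p = 0.234) or 2 (0.0508), WT db-cAMP array 1 (0.0545) or 2 (0.206), or either KO db-cAMP array (0.0629 for each). The genes nearest to no change were Mrpl43 at 0.00 ± 0.08, Mrpl14 at -0.02 ± 0.10 and Mrpl46 at -0.04 ± 0.09. Mrpl14 gave 1730 and 1557 with vehicle and 1706 and 1529 with db-cAMP, so that its groups overlapped.

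**Figure D2:**
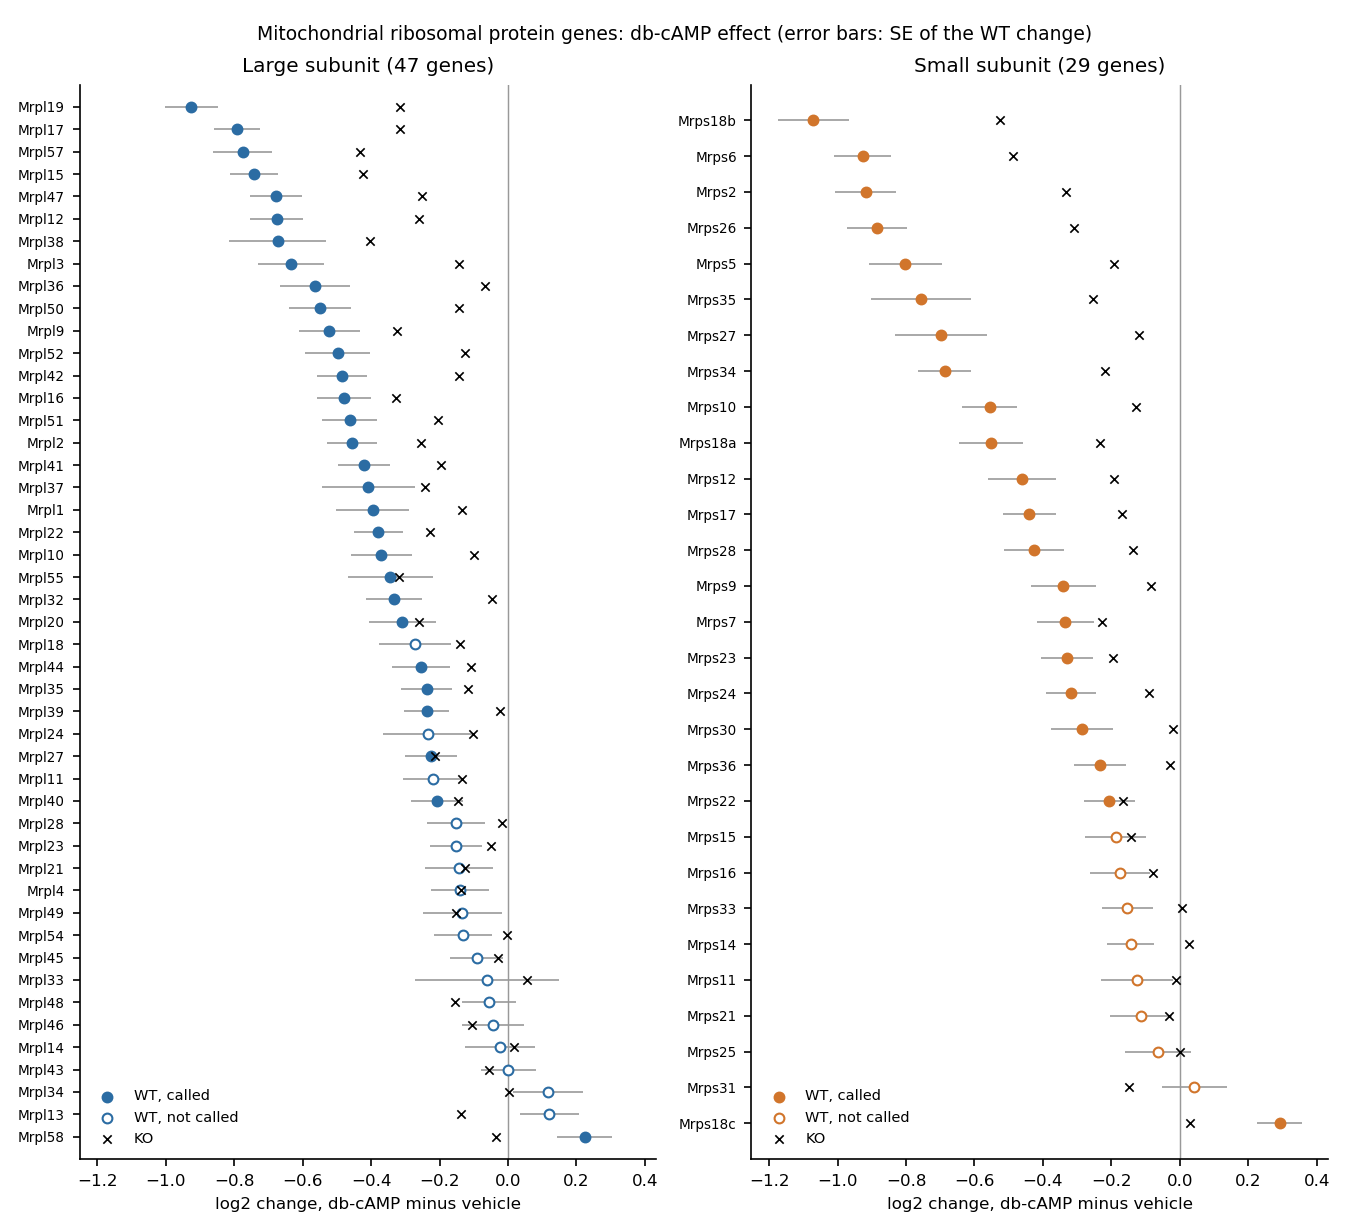
Log2 change with db-cAMP of every gene in WT cells (circles with SE, filled where called at an adjusted p under 0.05) and in KO cells (crosses), ordered by the WT change, with the large subunit left and the small subunit right. In WT 49 genes are called lower and 2 higher, and most crosses lie between the circle and 0.

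The subunits differed little in their medians, -0.31 for the large and -0.33 for the small subunit in WT cells. Their means were further apart at -0.33 and -0.41, as were their lower quartiles at -0.49 and -0.69. The mean log2 signal of the large minus the small subunit was 0.13 and 0.13 in the WT vehicle arrays and 0.20 and 0.22 in the WT db-cAMP arrays. It was 0.17 and 0.17 in KO cells with vehicle and 0.18 and 0.15 with db-cAMP. Only its change between groups can be read, because probes differ in brightness. The groups thus differed by under 0.1 on the log2 scale with the brightest probe set of each gene. In WT cells the value was 0.082 higher with db-cAMP than with vehicle, beside a pooled standard deviation between replicate arrays of 0.0125. With the mean of a gene's probe sets the value was 0.156 higher in WT cells with db-cAMP than with vehicle. No test was made, since the genes of a subunit are not replicates. With Mrps30 and Mrps18a counted in the large subunit, where the structure places them, and Mrps36 left out, 31 of 49 and 17 of 26 genes fell. Mrps36, a protein now placed in a dehydrogenase complex, changed by -0.23 ± 0.08 and Mrps30 by -0.28 ± 0.09. Both were called lower, and both calls were lost without WT vehicle array 2 (adjusted p = 0.175 and 0.108) and without WT db-cAMP array 1 (0.0863 and 0.124). That of Mrps36 was also lost without WT db-cAMP array 2 (0.0876) and that of Mrps30 without WT vehicle array 1 (0.0625).

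In WT cells descent also made little difference to the counts. Of 47 genes with a bacterial counterpart 30 fell and 1 rose (median log2 change -0.34), and of 29 without one 19 fell and 1 rose (median -0.25). In KO cells 9 of the 47 (19.1%) and 2 of the 29 (6.9%) fell. A db-cAMP effect that differed between the genotypes was called in 11 (23.4%) and 3 (10.3%). Differences between these sets were not tested. A further 66 probe sets of the same genes passed the filter. Of 47 that belonged to genes called with db-cAMP in WT cells, 22 were called in the same direction and 0 in the opposite one.

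In KO cells the same comparison gave smaller changes. Of the 76 genes 11 fell, 0 rose and 65 did not pass (limma, adjusted p under 0.05), where 3.68% of all genes tested were called lower and 4.7% higher. At an unadjusted p under 0.05, 26 were lower and 0 higher. The median log2 change was -0.14, against 0.00 for all genes tested, and 70 of 76 estimates were below 0. Without overlap between the groups, 50 of the 76 genes were lower with db-cAMP (65.8%, against 26.2% of all genes tested) and 1 was higher (1.32%, against 26%). In both genotypes 46 genes were lower without overlap (60.5%, against 16.9%). Without limma's intensity trend 0 of the 11 falls were called (15 genes were lower at an unadjusted p under 0.05).

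The 11 genes were Mrps18b, Mrps6, Mrps2 and Mrps26 of the small subunit and Mrpl57, Mrpl15, Mrpl16, Mrpl9, Mrpl19, Mrpl17 and Mrpl2 of the large one. All 11 were also among the 49 that fell in WT cells, which is 100% of the KO list and 22.4% of the WT list. Over all genes tested these shares were 92.4% and 18.3%, so the overlap lay near the background. Mrps18b gave 3778 and 4180 with vehicle and 2676 and 2842 with db-cAMP, the largest fall here as well (log2 -0.53 ± 0.10, limma adjusted p = 0.00639). Mrps6 went from 9426 and 10706 to 7017 and 7323 (log2 -0.49 ± 0.08, limma adjusted p = 0.00208). Mrpl15 went from 7309 and 7481 to 5465 and 5556 (log2 -0.42 ± 0.07) and Mrpl57 from 4908 and 5650 to 4047 and 3760 (log2 -0.43 ± 0.09). Mrpl16, whose promoter held the full CRE, went from 3281 and 3494 to 2717 and 2680 (log2 -0.33 ± 0.08), after -0.48 ± 0.08 in WT cells. Mrpl49, the other gene with a full CRE, changed by -0.13 in WT and -0.15 in KO cells and was called in neither. Whether the CRE plays a part was not tested.

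Of the other S18 relatives in KO cells, Mrps18a changed by -0.23 ± 0.09, which did not pass, and Mrps18c gave 6950 and 7143 with vehicle and 7202 and 7189 with db-cAMP, a change of 0.03 ± 0.06. The calls of Mrps6 and Mrpl15 were kept without any single array, whereas those of Mrps18b (adjusted p = 0.095) and Mrpl57 (0.0973) were lost without KO vehicle array 2. Mrps18b was also lost without KO db-cAMP array 1 (0.0739) and Mrpl57 without KO db-cAMP array 2 (0.0891). Mrpl16 was lost without KO vehicle array 2 (0.164), KO db-cAMP array 1 (0.114) or KO db-cAMP array 2 (0.143). The count of 11 was 6 without KO vehicle array 1, 2 without KO vehicle array 2, 3 without KO db-cAMP array 1 and 3 without KO db-cAMP array 2.

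Gene by gene, the effects in the 2 genotypes ran in parallel, and no array was shared between them. Across the 76 genes the WT and KO changes correlated with Pearson's r of 0.77 and Spearman's rho of 0.72, against 0.40 and 0.45 across all 12091 genes tested. This is a description across genes, which are not independent replicates and share the arrays of each genotype. All genes tested include dimmer ones than the 76, and the part of brightness in the higher correlation was not tested. Both changes were below 0 in 66 genes, and the WT change was the lower in 67 (88.2%, against 50.5% of all genes tested). The median KO change was 0.43 of the median WT change.

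The difference itself was tested as an interaction, the KO effect minus the WT effect. It was called in 14 of the 76 genes (18.4%), all with the smaller fall in KO cells (limma, adjusted p under 0.05). Of all genes tested 6.7% were called higher and 5.09% lower. The difference was not particular to these genes, since several related gene lists given below had it as well. At an unadjusted p under 0.05 there were 27 higher and 2 lower. Without limma's intensity trend 0 were called, with 17 higher at an unadjusted p under 0.05. The median was 0.17 (0.145 in the large and 0.255 in the small subunit), against 0.01 for all genes tested. The interaction uses the same vehicle arrays as the comparison of genotypes with vehicle, where the median was -0.15. These 2 results are therefore not independent. With db-cAMP the array medians against WT vehicle were -0.31 and -0.32 in WT and -0.27 and -0.34 in KO cells. The 14 genes were Mrps5, Mrps2, Mrps26, Mrps18b, Mrps34, Mrps6 and Mrps10 of the small subunit and Mrpl19, Mrpl36, Mrpl3, Mrpl17, Mrpl47, Mrpl12 and Mrpl42 of the large one.

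Mrpl19 had an interaction of 0.61 ± 0.11 (limma adjusted p = 0.00258), with 3608 and 3569 in KO cells under vehicle and 2929 and 2833 under db-cAMP. Mrps2 had 0.59 ± 0.13 (limma adjusted p = 0.00899), with KO signals of 2079 and 2255 under vehicle and 1750 and 1687 under db-cAMP. For Mrps5 it was 0.61 ± 0.15, and its KO signals of 1621 and 1659 against 1407 and 1464 differed little beside the fall in WT cells. The calls of Mrpl19, Mrps2, Mrps26 and Mrpl17 were kept without any single array, whereas that of Mrps5 was lost without 6 of the 8, with adjusted p from 0.0528 to 0.0802, and kept without WT vehicle array 2 or WT db-cAMP array 1. The count of 14 was 6 without WT vehicle array 1, 9 without WT db-cAMP array 2, 6 without KO vehicle array 1, 9 without KO vehicle array 2, 6 without KO db-cAMP array 1 and 5 without KO db-cAMP array 2. Only 1 of 14 other probe sets of these genes was called, in the same direction.

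**Figure D3:**
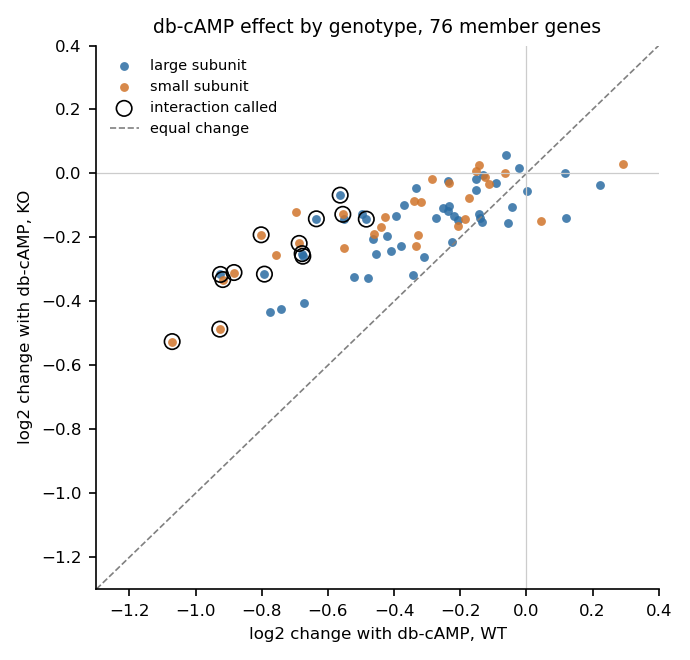
Log2 change with db-cAMP in KO cells (vertical) against that in WT cells (horizontal) for 76 genes, coloured by subunit, with the 14 genes of a called interaction ringed and a dashed line of equal change. Most points lie above the line and in the lower left corner, that is lower in both genotypes with the smaller change in KO cells.

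In cells with vehicle, some of these genes had lower signals in KO than in WT cells. Of the 76 genes 16 were lower, 1 was higher and 59 did not pass (limma, adjusted p under 0.05), where 5.78% of all genes tested were called lower and 5.06% higher. The median was -0.15, against 0.00 for all genes tested. Without limma's intensity trend 0 were called, with 1 higher and 21 lower at an unadjusted p under 0.05. Of 7 other probe sets of the called genes 0 were called. Without overlap 42 genes were lower in KO cells (55.3%, against 26.6% of all genes tested) and 5 higher (6.58%, against 24.3%). Mrpl54 gave 4120 and 4264 in WT and 2727 and 2715 in KO cells, without overlap (log2 -0.62 ± 0.08, limma adjusted p = 0.000427). Mrpl27, the counterpart of a bacterial protein that reaches towards the peptidyl transferase centre, gave 5403 and 5523 against 3688 and 4083 (log2 -0.49 ± 0.07). Mrps23 gave 3532 and 3358 against 2483 and 2518 (log2 -0.46 ± 0.08), and Mrps16, the counterpart of bacterial S16, 5739 and 5815 against 4130 and 4410 (log2 -0.44 ± 0.09). The call of Mrps16 was lost without KO vehicle array 1 (adjusted p = 0.0648), and the other three were kept without any single array. Other probe sets of Mrps23 gave 0.15 and -0.11, and another of Mrpl27 gave -0.50, none of them called.

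The gene that was higher in KO cells was Mrpl45, which helps to anchor the ribosome to the inner mitochondrial membrane. It gave 2346 and 2371 in WT and 3245 and 3499 in KO cells with vehicle (log2 0.51 ± 0.08, limma adjusted p = 0.000929). With db-cAMP it gave 2246 and 2181 in WT and 3285 and 3317 in KO cells, a difference of 0.58 ± 0.08. It did not change with db-cAMP past the threshold in either genotype, at -0.09 ± 0.08 and -0.03 ± 0.08.

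Several measures of the arrays also differed between the genotypes. Control probe sets for spiked poly-A RNA averaged 1270 to 1853 on WT and 3755 to 5294 on KO arrays, and the 98th percentile of signal was 10960 to 11490 on WT and 9588 to 10070 on KO arrays. The ratio of 3′ to 5′ Gapdh probe sets was 0.734 to 0.769 on WT and 0.779 to 0.85 on KO arrays. That of 18S rRNA was 0.353 to 0.441 on WT and 0.513 to 0.623 on KO arrays. Their part in the genotype differences was not tested. With each array scaled to an equal 75th percentile instead, 28 of the 76 genes were lower and 1 higher in KO cells with vehicle, and the median of all genes tested was -0.10. The calls over all genes were then 402 higher and 1173 lower, against 612 and 699 with the values as deposited. With quantile normalization 10 of the 76 genes were lower and 3 higher, and their median was -0.116 against -0.032 for all genes tested. Over all genes that gave 486 higher and 509 lower calls. The count of 17 called was 8 without WT vehicle array 1, 9 without WT vehicle array 2 and 8 without KO vehicle array 1.

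With db-cAMP in both genotypes, 12 of the 76 genes were higher and 8 lower in KO cells, beside 15.9% and 13.3% of all genes tested. These shares of 15.8% and 10.5% lay near the background. Of 25 other probe sets of the called genes 5 were called, in the same direction. Without overlap 33 genes were higher (43.4%, against 32.1% of all genes tested) and 15 lower (19.7%, against 32%). The median was 0.05 and turned to -0.07 with arrays scaled to an equal 75th percentile, where 8 genes were higher and 12 lower and the median of all genes was -0.13. That scaling gave 1375 higher and 2246 lower calls over all genes, against 1926 and 1603 with the values as deposited. The genes higher in KO cells were Mrpl3, Mrpl19, Mrpl45, Mrpl47, Mrpl52 and Mrpl15 of the large and Mrps27, Mrps18b, Mrps2, Mrps6, Mrps5 and Mrps26 of the small subunit. Mrpl3 gave 2752 and 2538 in WT and 4061 and 4544 in KO cells with db-cAMP (log2 0.70 ± 0.10, limma adjusted p = 0.000103). Another probe set of Mrpl3, of mean signal 3172 against 3954, gave -0.12 here (limma adjusted p = 0.375). Its interaction was 0.20 (limma adjusted p = 0.414), so both calls of Mrpl3 depend on the probe set. Mrps27, a protein with pentatricopeptide repeats, gave 451 and 551 against 742 and 838 (log2 0.66 ± 0.13), and Mrps18b 0.64 ± 0.10.

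Mrps18c stood out on the lower side, with 10308 and 10538 in WT and 7202 and 7189 in KO cells with db-cAMP (log2 -0.53 ± 0.06, limma adjusted p = 3.6e-05). Lower in KO cells under both treatments were 8 genes, namely Mrpl27, Mrpl40, Mrpl48, Mrpl54, Mrps16, Mrps18c, Mrps22 and Mrps23 (10.5%, against 3.71% of all genes tested). Other probe sets of Mrpl48 (-0.03 with vehicle, 0.02 with db-cAMP), Mrps23 (0.15 and 0.19, -0.11 and 0.63) and Mrpl27 (-0.50 and 0.45) were not called. The calls with vehicle of Mrpl48, Mrps18c and Mrps22 were lost without WT vehicle array 1 (adjusted p = 0.135, 0.0816 and 0.0845), WT vehicle array 2 (0.137, 0.065 and 0.0803) or KO vehicle array 1 (0.188, 0.088 and 0.132). That of Mrpl48 was also lost without KO vehicle array 2 (0.0772), KO db-cAMP array 1 (0.0642) or KO db-cAMP array 2 (0.0633). The call of Mrpl40 with vehicle was lost without WT vehicle array 2 (0.0825) or KO vehicle array 1 (0.0969). Its call with db-cAMP was lost without WT db-cAMP array 1 (0.071) or KO db-cAMP array 1 (0.114). The calls of Mrps16 and Mrps22 with db-cAMP were lost without WT db-cAMP array 2 (0.107 and 0.0899) or KO db-cAMP array 2 (0.112 and 0.157). Mrps26 was lower in KO cells with vehicle (-0.32 ± 0.09) and higher with db-cAMP (0.26 ± 0.09). Its call with vehicle was lost without WT vehicle array 1 (adjusted p = 0.11), WT vehicle array 2 (0.143), KO vehicle array 2 (0.226), KO db-cAMP array 1 (0.0543) or KO db-cAMP array 2 (0.0535). The call with db-cAMP was kept under 8 of 20 alternative settings, and the highest adjusted p without 1 array was 0.244, without WT db-cAMP array 2.

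**Figure D4:**
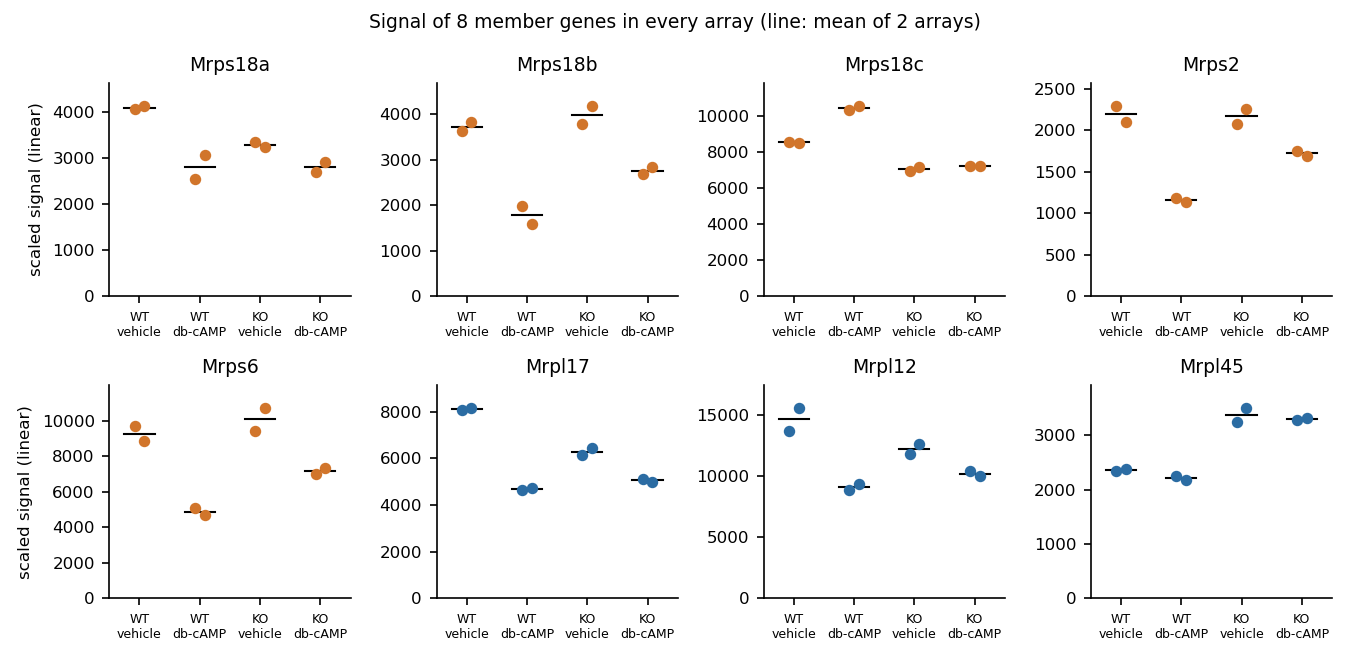
Scaled signal (linear axis from 0) of 8 genes in every array by group, with points for arrays and lines for the mean of 2. Mrps18b, Mrps2 and Mrps6 are lowest in WT cells with db-cAMP, Mrps18c is highest there, and Mrpl45 is higher in both KO groups.

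Other proteins of the mitochondrial ribosome carry unrelated symbols. Of 4 such genes, Ptcd3 went from -0.64 ± 0.09 in WT to -0.11 ± 0.09 in KO cells with db-cAMP, and Gadd45gip1 from -0.48 ± 0.08 to -0.16 ± 0.08. Both were called in WT cells. Chchd1 at -0.14 and Dap3, a GTP-binding protein of the small subunit, at 0.10 were not.

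Genes that serve the mitochondrial ribosome gave lower values with db-cAMP in WT cells as well. Of 10 translation factors 5 fell and 1 rose (median log2 change -0.55), among them Mtif2, an initiation factor, at -0.65 and the elongation factor Tufm at -0.50. Of 19 genes for charging mitochondrial tRNAs 8 fell and 0 rose (10 and 0 at an unadjusted p under 0.05), the largest called falls being Mars2 at -2.22, Rars2 at -1.21 and Yars2 at -1.10. Of 23 assembly factors 12 fell and 1 rose, with Mrm3, an rRNA methyltransferase, at -1.20 and Malsu1 at 0.34. Of 17 genes of mitochondrial transcription and RNA processing 12 fell and 1 rose, with Supv3l1, a helicase, at -1.09 and the transcription factor Tfam at -0.41. In KO cells 0, 2, 1 and 1 genes of these lists fell, with 2, 3, 7 and 6 at an unadjusted p under 0.05. The shares that fell were 50%, 42.1%, 52.2% and 70.6% in WT cells, against 18.6% of all genes tested. In KO cells they were 0%, 10.5%, 4.35% and 5.88%, against 3.68%. Those of the assembly factors and of transcription and RNA processing thus lay near the background in KO cells. Over all 12091 genes 2480 had an unadjusted p under 0.05 there, in either direction. The interaction was called higher in 3, 2, 5 and 7 genes of these lists (30%, 10.5%, 21.7% and 41.2%, against 6.7% of all genes tested). It was called lower in 0 of each (1, 0, 0 and 1 at an unadjusted p under 0.05). Without limma's intensity trend 1, 1, 1 and 0 were called higher, with 4, 3, 9 and 8 at an unadjusted p under 0.05.

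Cytosolic ribosomal proteins and the respiratory chain gave other values. Of 40 cytosolic ribosomal protein genes 17 rose (42.5%, against 16.4% of all genes tested) with db-cAMP in WT cells (median 0.26). In the same comparison 1 fell (2.5%, against 18.6%). All 17 rises were lost without limma's intensity trend, where 0 rose and 1 fell (1 and 1 at an unadjusted p under 0.05). Of 76 subunits of oxidative phosphorylation 14 were called higher and 1 lower (median 0.09). That share of 18.4% called higher lay near the 16.4% of all genes tested, and without the trend 3 were called higher. Of 40 ribosome biogenesis genes 36 fell (90%, against 18.6% of all genes tested). Their median of -0.99 was further from 0 than the -0.33 of the mitochondrial ribosomal proteins. With db-cAMP in KO cells 22 of them fell (55%, against 3.68%), and the interaction was called higher in 28 (70%, against 6.7%). Without the trend these counts were 1 and 9, with 22 and 29 at an unadjusted p under 0.05. In KO cells with vehicle, 31 of the 40 cytosolic ribosomal protein genes were called lower than in WT cells (77.5%, against 5.78% of all genes tested; median -0.52). Without the trend 1 of the 40 was called lower, and 30 had an unadjusted p under 0.05. Of the 76 oxidative phosphorylation subunits 20 were called lower in KO cells with vehicle (26.3%, median -0.19), beside 21.1% of the mitochondrial ribosomal proteins. With db-cAMP 41 were lower (53.9%, against 13.3% of all genes tested). Without the trend these counts were 1 and 17, with 24 and 38 at an unadjusted p under 0.05.

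**Figure D5:**
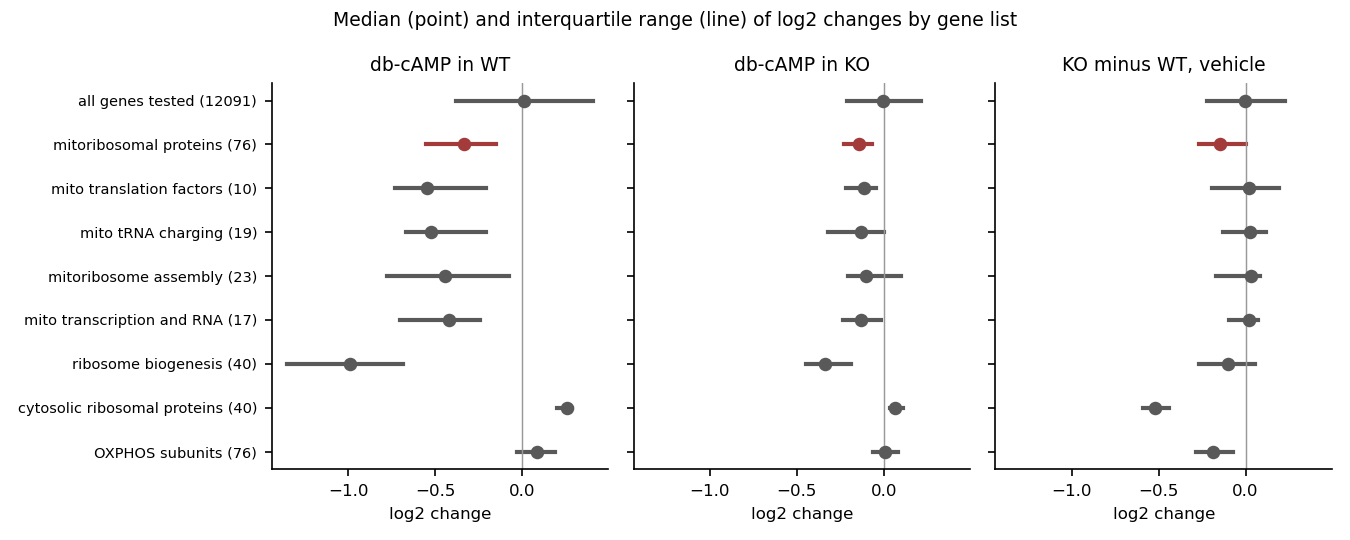
Median (point) and interquartile range (line) of log2 changes for the mitochondrial ribosomal proteins (red), related gene lists and all genes tested, with the number of genes in brackets, for db-cAMP in WT, db-cAMP in KO and KO minus WT under vehicle. In WT the mitochondrial ribosomal proteins lie below 0 at -0.33, between ribosome biogenesis at -0.99 and cytosolic ribosomal proteins at 0.26.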

How the data were processed

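Per the labels' protocols, RNA was labelled by in vitro transcription from the 3′ end and put on 8 arrays. MAS5 gave the deposited values, 1 linear intensity for each probe set and array, per the submitters' processing notes. Its version and settings were not stated in the labels used here. The middle 96% of values averaged 500 on every array, so the authors' intensities were already scaled.

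Genes were named from probe sets with 1 symbol (34945 of 45101; 932 had several and 9160 none), with the probe set of highest mean log2 value per gene. Values were transformed as log2(value + 5.48), the offset being the 10th percentile, which understates changes of dim genes. The test took genes that exceeded the median of the array in 2 or more arrays. Differences came from limma 3.58.1 in R 4.3.3 (lmFit, eBayes with intensity trend, a term for each group, all arrays in 1 fit, leaving 4 residual degrees of freedom) with Benjamini-Hochberg adjustment over 12091 genes. The number of arrays limits the precision. Errors are standard errors.

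The members, gene lists and the rule for named genes (largest called changes by subunit and comparison, exceptions, and genes nearest 0) were chosen with earlier results of these data known. In simulated data for db-cAMP in WT with 12091 genes, a change of 1.25-fold was recovered for 12% of genes, one of 1.5-fold for 36.8% and one of 2-fold for 55.2%. Of the calls 8.42% were false. The simulation changed far fewer genes than were called in these data and drew them from all signal levels. Its rates therefore need not hold for the members. Alternatives changed the offset, filter, choice of probe set, scaling, trend, samples and replicate block. Figures used Python 3.11.15 and matplotlib 3.10.9.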

Additional observations from a re-analysis of the deposited data

Results flagged for a closer look

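In 14 genes the db-cAMP effect differed between genotypes by limma's interaction test, each with the smaller fall in KO cells. The KO effect minus the WT effect on the log2 scale was 0.61 for Mrps5, 0.608 for Mrpl19, 0.586 for Mrps2, 0.575 for Mrps26 and 0.545 for Mrps18b. It was 0.494 for Mrpl36, 0.492 for Mrpl3, 0.477 for Mrpl17, 0.468 for Mrps34 and 0.44 for Mrps6. For Mrpl47 and Mrps10 it was 0.427, for Mrpl12 0.417 and for Mrpl42 0.341. The adjusted p ran from 0.00258 for Mrpl19 to 0.0477 for Mrpl42. Without limma's intensity trend 0 of the 76 genes had an adjusted p under 0.05, and 17 had an unadjusted p under 0.05.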

How the results depend on the processing

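In WT cells the count of genes called with db-cAMP was 51 and lay between 34 and 53 under all alternatives run. With quantile normalization the median moved to -0.291. The other counts moved more. With the mean of a gene's probe sets, which mixes in dim ones, 5 genes were called with db-cAMP in KO, 7 for KO against WT under vehicle (median -0.086) and 3 in the interaction. The large minus small subunit value was then -0.332, -0.176, -0.288 and -0.236 (WT vehicle, WT db-cAMP, KO vehicle, KO db-cAMP), and with subunits by structure 0.107, 0.19, 0.142 and 0.143. Under that mean some genes changed sign. Mrpl47 gave 0.003 for db-cAMP in WT, -0.062 for KO against WT under db-cAMP and -0.39 in the interaction. For KO against WT under vehicle Mrpl17 gave 0.067, Mrpl54 0.037 and Mrps26 0.623, and under db-cAMP Mrps23 gave 0.165. In the interaction Mrpl3 gave -0.034 and Mrps26 -0.555. Mrps14 turned to 0.171 for KO against WT under db-cAMP with quantile normalization, and the cause was not tested. With an equal 75th percentile 29 genes were called for KO against WT under vehicle (median -0.239). The medians were then -0.074 under db-cAMP and -0.19 for db-cAMP in KO, where calls over all genes were 449 higher and 585 lower against 568 and 445 as deposited. Without limma's intensity trend the counts were 0 for db-cAMP in KO, 0 for KO against WT under vehicle, 13 under db-cAMP and 0 for the interaction. At an unadjusted p under 0.05 they were then 15 lower, 1 higher with 21 lower, 11 higher with 8 lower, and 17 higher. With every probe set tested, an alternative chosen after seeing the data, 7 genes were called for db-cAMP in KO.

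Leaving out 1 array gave 40 to 50 calls for db-cAMP in WT, 2 to 11 in KO, 8 to 19 for KO against WT under vehicle, 15 to 20 under db-cAMP and 5 to 12 for the interaction. The medians ran from -0.352 to -0.309, -0.189 to -0.115, -0.207 to -0.105, 0.035 to 0.07 and 0.158 to 0.214. The large minus small value ran from 0.132 to 0.133, 0.203 to 0.224, 0.172 to 0.173 and 0.151 to 0.179 in the 4 groups. Of the falls with db-cAMP in WT 24 of 49 were called under every alternative, of those in KO 0 of 11, and of the interactions 0 of 14. Same-numbered replicates did not deviate together (correlations of -0.02 to 0.021), and the main fit did not pair samples by number. Such values cannot exclude that same-numbered samples shared a mouse or culture. With the replicate block 49, 9, 16, 21 and 14 genes were called in the 5 comparisons. Brightness left no gene unmeasured, since all 76 passed the filter.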
